A study of Mus musculus with 6 samples.

Results

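Of the 24379 genes counted in the series, 96 (0.394%) had few counts in the control-labelled libraries and low but higher counts in every HFCS-labelled library. They were chosen on their read counts by a rule with 3 conditions, applied to CPM, the usual scaling of a gene's count by the total count of its library (1 CPM was 13.1 to 15.3 counts here). The mean of the control-labelled libraries had to be under 0.5 CPM, the mean of the HFCS-labelled libraries at least 1 CPM, and the lowest HFCS-labelled library above the highest control-labelled library. Because the rule used this contrast, the levels of the 96 genes in the 2 groups are given as a description and carry no test.

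RNA sequencing was run on total RNA of RAW264.7, an established mouse line that grows like macrophages. Its 6 libraries fall into 3 labelled HFCS (high-fructose corn syrup, whose sugars are fructose and glucose) and 3 labelled WT, called control-labelled here. HFCS was given at 140 mM according to the titles and treatment labels and at 170 mM according to the source names, and all libraries carry the time label 18 h. The sources used here do not say what the control-labelled cells received, or whether replicates were separate cultures, so every p-value measures only the spread between these libraries. All samples are of 1 cell line, which is no tissue macrophage, and its macrophage markers summed to 2825 to 2911 CPM in the HFCS-labelled and 2359 to 2413 CPM in the control-labelled libraries.

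Macrophages keep many inflammatory genes almost silent until a stimulus arrives. Cytokine genes such as Il1b and Il6 are then transcribed through factors that include NF-kB, AP-1 and C/EBP proteins, and interferon-inducible GTPase genes through STAT and IRF factors that bind the elements called GAS and ISRE. The GTPases act on membranes around intracellular microbes, and feedback inhibitors such as Socs1 dampen the cytokine signal.

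Short promoter stretches are printed for 7 of the genes, with matches to short motifs marked. They belong to cytokine and GTPase genes and Socs1, whose families are described with their other genes below. RefSeq windows of 300 bases on build GRCm38.p6, from 250 bases before to 50 bases after a transcript start, were matched by symbol for 55 of the 96 genes and gave 69 windows. All stretches run 5′ to 3′ on the gene's own strand and end before the start, and capitals mark matches to the motifs named with them. For Irgm2, Il17f and Gbp3 the RefSeq start lies inside the bounds that the count table gives for the gene. For the cytokines, the Il6 stretch lies at chr5:30012974-30013093 (plus strand), the Il1b stretch at chr2:129371150-129371259 (minus strand) and the Il17f stretch at chr1:20784281-20784410 (minus strand). Capitals mark C/EBP and NF-kB motifs in Il6, and a C/EBP motif and a TATA box in Il1b and Il17f.
Il6: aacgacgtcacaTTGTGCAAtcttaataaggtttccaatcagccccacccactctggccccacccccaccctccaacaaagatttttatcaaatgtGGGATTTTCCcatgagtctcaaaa
Il1b: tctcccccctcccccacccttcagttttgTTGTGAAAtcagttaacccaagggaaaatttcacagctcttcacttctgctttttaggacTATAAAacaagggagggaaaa
Il17f: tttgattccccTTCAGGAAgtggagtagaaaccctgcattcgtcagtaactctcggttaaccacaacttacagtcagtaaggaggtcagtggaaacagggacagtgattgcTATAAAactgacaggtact
For the GTPases and Socs1, the Igtp stretch lies at chr11:58199466-58199545 (plus strand), the Irgm2 stretch at chr11:58214877-58214956 (plus strand), the Gbp3 stretch at chr3:142559944-142560023 (plus strand) and the Socs1 stretch at chr16:10785577-10785656 (minus strand). Capitals mark a GAS motif followed by an ISRE motif in Igtp and Irgm2, and ISRE motifs in Gbp3 and Socs1.
Igtp: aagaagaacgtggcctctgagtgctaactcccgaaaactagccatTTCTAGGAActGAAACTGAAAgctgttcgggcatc
Irgm2: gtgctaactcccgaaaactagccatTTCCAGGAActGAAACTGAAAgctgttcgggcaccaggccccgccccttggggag
Gbp3: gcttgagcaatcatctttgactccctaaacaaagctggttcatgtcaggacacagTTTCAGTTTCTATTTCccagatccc
Socs1: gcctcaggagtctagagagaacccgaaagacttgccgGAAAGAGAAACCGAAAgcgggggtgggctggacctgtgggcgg
The Igtp and Irgm2 stretches were near copies of each other, with 58 of 60 aligned bases identical. The ISRE motif, TTTCNN followed by TTTC on either strand, was in 6 of the 69 windows (8.70%), those of Cytip, Gbp3, Igtp, Irgm2, Socs1 and Tenm4. It was in 2.98% of the 12550 windows of genes that entered the edgeR test and in 3.44% of all 32851 windows. The NF-kB motif, GGGNN followed by TTTCC, was in the Il6 window alone, 1.45% of windows against 1.73% of those of tested genes and 1.63% of all. Shares for the other motifs are given for the 69 windows, then for windows of tested genes, then for all windows. AP-1 (TGANTCA) had a match in 8.70%, 5.23% and 7.81%, the TATA box (TATAAA, gene strand) in 8.70%, 4.17% and 8.32%, and the CArG box in 2.90%, 1.24% and 1.63%. The C/EBP motif (TTNNGNAA) had a match in 37.7%, 31.8% and 40.7%, and GAS (TTCNNNGAA) in 7.25%, 6.69% and 8.30%. The CRE (TGACGTCA) had one in 2.90%, 3.16% and 1.79%. For C/EBP, GAS and the CRE the direction by windows differed between the 2 backgrounds. Windows of 1 gene can overlap, and AP-1, TATA box, C/EBP and GAS sites of Ctla2a and the CRE of Bend6 were counted in 2 windows each. By genes, AP-1 was in 5, the TATA box in 5, GAS in 4 and the CRE in 1. Small differences between these shares therefore cannot be read. ISRE and GAS were added to the search after the genes were known, and C/EBP, GAS and other matches can overlap. A match describes letters in these windows and is not a measured binding site.

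Libraries held 13108485 to 15340255 counts, and 3 counts, the floor used for a gene not counted, was 0.196 to 0.229 CPM. On principal components of all tested genes, control replicate 1 lay apart from the other 2 control-labelled libraries on the second component (29.3 against -14.2 and -13.4), which held 11.8% of the variance. HFCS-labelled replicate 3 also lay apart from its group on that component (-18.9 against 8.9 and 8.2). Without control replicate 1, 125 genes met the rule, and without HFCS-labelled replicate 3, 112 did, in each case with 86 among the 96. Genes known to be induced in hypertonic medium, such as one rich in sugar, were mostly higher in the control-labelled libraries. By edgeR, 22.5% of all tested genes were lower and 22.4% higher in the HFCS-labelled libraries. Of 18 tested genes of the hypertonicity list, 13 were lower and 4 higher in the HFCS-labelled libraries. Akr1b3, the osmolyte-producing aldose reductase, was at 214 ± 11.9 CPM (SD, n = 3) there and at 7218 ± 343 CPM (SD, n = 3) in the control-labelled libraries. No engineered gene checks the labels, so every direction below is that of the labels as deposited. In a bulk library, fewer cells making a transcript and less of it per cell cannot be told apart.

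The 96 genes were not confined to the HFCS-labelled libraries. Only Gbp8 had 0 counts in all 3 control-labelled libraries, 5 genes had 0 in 2 of them, 6 had 0 in 1, and 84 were counted in every control-labelled library. The control-labelled counts summed over 3 libraries had a median of 15 (0 to 21), and the HFCS-labelled sums a median of 62.5 (43 to 294). By level, the median of the means was 1.43 CPM (1.005 to 6.75) in the HFCS-labelled and 0.341 CPM (0 to 0.481) in the control-labelled libraries. The genes are therefore called low-control genes here rather than genes found in HFCS-labelled cells only. Among the 95 with a control count, the ratio of mean CPM had a median of 4.90 and ran from 2.23 for Klk9 to 74.6 for Tenm4. Ratios of at least 10 were seen in 13 genes and of at least 3 in 83, Gbp8 counted among them. Together the 96 genes held 151 to 166 CPM in each HFCS-labelled library and 28.3 to 32.4 CPM in each control-labelled library.

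The rule selects strongly, and its background shows how. In all genes listed, the lowest HFCS-labelled library lay above the highest control-labelled library in 5202 of 24379 (21.3%), and the reverse held in 17.1%. Among the 9284 genes with a control mean under 0.5 CPM it held in 6.04%, and among the 107 that also passed the HFCS limit in 89.7%, so 11 genes were left out by non-overlap alone. The mirrored rule, with the groups exchanged, gave 218 genes. Just inside the HFCS limit were Gm12689 (1.005 CPM) and Sh3d21 (1.01 CPM), and just outside it Mroh8 and Gm37614 (both 0.998 CPM). Just inside the control limit were Prox2os and Foxf1 (both 0.481 CPM), and just outside it Slc16a8, with 0.504 CPM against 3.23 CPM in HFCS-labelled libraries. Klk9 met the non-overlap condition by the narrowest margin, with 10 counts in its lowest HFCS-labelled library against 9 in its highest control-labelled library, and Magee1 missed it with 9 counts in each of those libraries. The edgeR filter on low counts kept 89 of the 96 and left out Gm5466, Zfp882, Gm14827, Gm45224, ENSMUSG00000094728, Nme2 and Klk9.

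**Figure D1:**
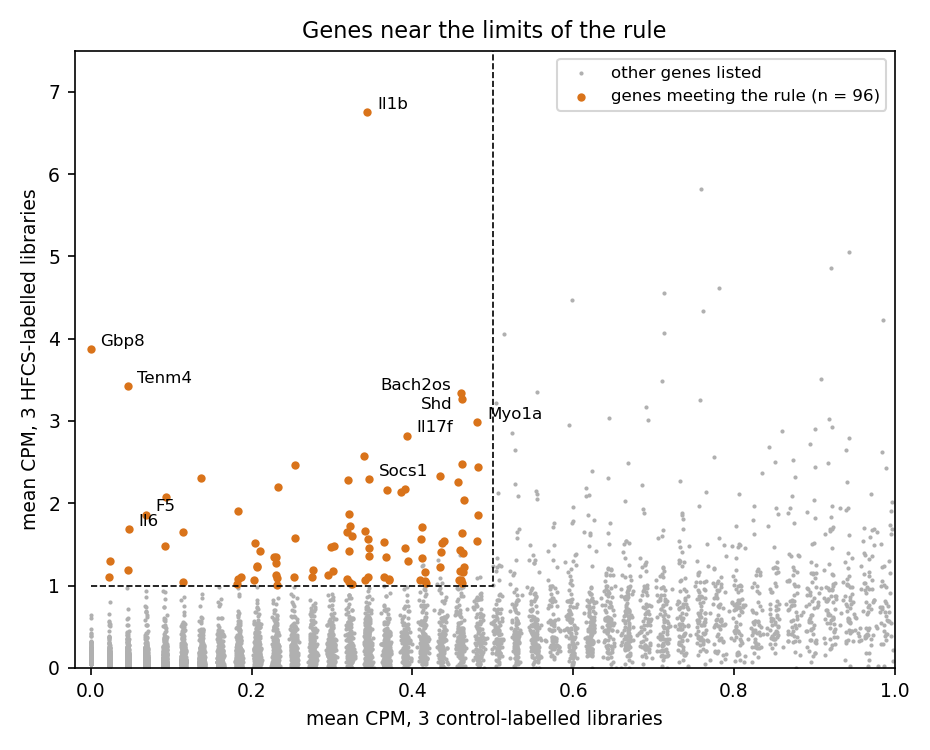
Mean CPM of each gene in the 3 control-labelled libraries (horizontal axis, shown up to 1) against its mean in the 3 HFCS-labelled libraries (vertical axis). Orange points are the 96 genes meeting the rule, grey points other genes, and dashed lines the limits of 0.5 and 1 CPM; most orange points lie just above the lower line, with Il1b at 6.75 CPM far above the rest.

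The 3 cytokines held the highest gene of the whole set. Il1b, which encodes the pro-inflammatory cytokine cleaved by inflammasomes, had 86, 83 and 125 counts in HFCS-labelled replicates 1 to 3 and 3, 2 and 10 counts in control-labelled replicates 1 to 3. Its mean was 6.75 ± 1.31 CPM (SD, n = 3) against 0.344 ± 0.300 CPM (SD, n = 3), a ratio of 19.6. All 3 control-labelled libraries had counts, and the lowest HFCS-labelled library was 4.86 CPM above the highest of them.

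Il6, a cytokine that drives the acute-phase response, had 18, 19 and 37 counts in the HFCS-labelled libraries and 0, 2 and 0 counts in the control-labelled ones. Replicate 3 was highest, and the only 2 control-labelled counts came from replicate 2. The ratio of summed counts, scaled by library totals, was 37.1 with an exact interval of 9.90 to 312. The interval covers counting error only and does not allow for the choice of the gene on these same counts. Il17f, a cytokine best known from T cells and innate lymphoid cells, had 53, 31 and 36 counts against 5, 8 and 4. Its level was 2.82 ± 1.07 CPM (SD, n = 3) against 0.393 ± 0.154 CPM (SD, n = 3), with replicate 1 highest. T and natural killer cell markers summed to 7.83 to 9.08 CPM in the HFCS-labelled and 4.18 to 5.66 CPM in the control-labelled libraries. Only 5 of the 12 markers were in the count table, and only 1 had enough counts to be tested, which was higher (log2 fold change 0.73). The part of such cells in the Il17f counts was not tested.

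Relatives of these cytokines and their receptors were given the edgeR test. In that fit, 3223 of 14360 tested genes (22.4%) rose in the libraries labelled HFCS and 3224 (22.5%) fell at an adjusted p under 0.05. The median log2 fold change was -0.0045. These shares are the background for the counts of every gene list here. Of 7 other genes of the IL-6 family and its receptors that were tested, 3 were higher, 1 lower and 3 did not pass, with a median log2 fold change of 0.13. Osm, a related cytokine, had 286, 318 and 337 counts against 125, 110 and 107 (log2 fold change 1.38 ± 0.12, SE). Il6ra, the binding chain of the receptor, was higher by 0.72 ± 0.09 (log2, SE), while Il6st, the signalling chain, was at 115 CPM in both groups and did not pass (-0.08 ± 0.07).

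Of 7 other IL-1 family genes tested, 1 was higher, 1 lower and 5 did not pass, with a median log2 fold change of -0.05. Without the filter on low counts, 3 were lower. Il18rap, the accessory chain of the Il18 receptor, was lower (log2 fold change -1.25 ± 0.10, SE). Il1rap, the shared receptor chain through which Il1b signals, was higher (1.08 ± 0.19, SE). The receptor gene Il1r1 went the other way, with 2, 2 and 0 counts against 6, 13 and 5, and was not tested. Il1a, which encodes the second agonist of the same receptor, had 9, 8 and 8 counts against 14, 5 and 10 and did not pass. The IL-17 family list was put together after the genes were known, and of its 4 other tested genes 2 were higher and 2 did not pass. Those 2 were the receptor chains Il17ra (0.80 ± 0.08, SE) and Il17rc (0.76 ± 0.16, SE).

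Interferon-inducible GTPase genes gave 6 of the 96, and they included the only gene uncounted in control-labelled cells. Gbp8, a guanylate-binding protein gene, had 53, 45 and 70 counts in the HFCS-labelled libraries and 0 in each control-labelled library. Against a floor of 3 counts over the control-labelled group it was at least 56.1-fold higher. Its level of 3.87 ± 0.79 CPM (SD, n = 3) was the second highest among the low-control genes.

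Igtp (also known as Irgm3) and Irgm2, members of the immunity-related GTPase family with the near-identical stretches shown above, lie on the same strand and overlap at chr11:58199556-58207591 and chr11:58199618-58222782. Irgm2 had 19, 22 and 22 counts against 3, 5 and 7, the most even HFCS-labelled values of all 96 genes. Igtp had 20, 21 and 17 counts against 5, 2 and 3. Of the exon bases, 8.01% in Igtp and 4.39% in Irgm2 are shared with another gene, and how reads there were counted is not given in the sources used. Beyond the printed stretches the likeness of the 2 genes was not compared.

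Gvin1, a very large GTPase, had 13, 28 and 18 counts against 3, 4 and 3. Gbp9, which overlaps Gbp8 on the same strand, had 24, 17 and 14 against 1, 8 and 8. Gbp3 had 13, 15 and 18 counts against 2, 5 and 11. The ratio of mean CPM was 5.83 for Gvin1, 3.27 for Gbp9 and 2.54 for Gbp3, and Gbp3 met the rule in only 4 of the 6 sets that leave out a library.

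The rest of the family, in a list put together after these genes were known, was mostly low in both groups. The list had 18 genes in the count table, and of the 12 outside the rule 4 were tested. Irgm1, a regulator of the other immunity-related GTPases, had 146, 166 and 209 counts against 89, 80 and 90 and was higher by edgeR (log2 fold change 0.93 ± 0.15, SE, adjusted p = 5.4e-04). Ifi47 (1.49 against 1.04 CPM), 9930111J21Rik1 (1.86 against 1.31 CPM) and 9930111J21Rik2 (5.35 against 4.78 CPM) did not pass. Summed over the 12 genes outside the rule, the family was at 19.22 to 25.49 CPM in the HFCS-labelled and 12.13 to 14.96 CPM in the control-labelled libraries, most of it from Irgm1 and 9930111J21Rik2.

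**Figure D2:**
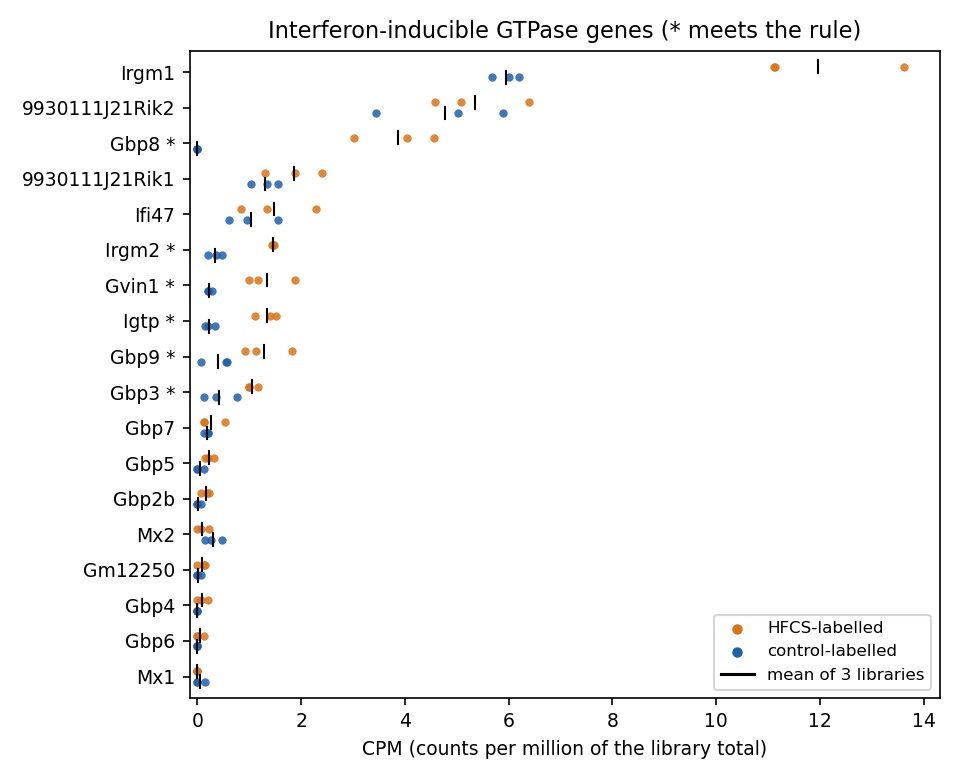
CPM of 18 interferon-inducible GTPase genes in each of the 6 libraries, with the group means as vertical bars. Asterisks mark the 6 genes meeting the rule; Gbp8 is at 0 in every control-labelled library, Irgm1 is the highest gene of the family, and the genes at the bottom are near 0 in both groups.

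Among 8 genes for adaptors, kinases and feedback proteins, Socs1, which blocks JAK kinases downstream of interferon and cytokine receptors, had 46, 32 and 19 counts against 6, 7 and 2. Its HFCS-labelled libraries spread beyond counting noise, from 3.51 CPM in replicate 1 to 1.24 CPM in replicate 3. Of 6 other tested SOCS genes, a list chosen after the fact, 3 were higher, 1 lower and 2 did not pass. Cish was higher (28, 48 and 40 counts against 11, 7 and 5, log2 fold change 2.23 ± 0.37, SE), while Socs3 had 47.9 ± 2.48 CPM (SD, n = 3) against 44.1 ± 10.6 CPM (SD, n = 3) and did not pass.

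Pycard, the ASC adaptor that links inflammasome sensors to caspase activation, had 10, 17 and 28 counts against 1, 1 and 7. The control-labelled values lay below every HFCS-labelled value, as the rule requires, and the HFCS-labelled ones differed from each other beyond counting noise. Cytip, which binds the integrin regulator cytohesin, had 23, 38 and 22 counts against 4, 3 and 1. Shd, an SH2-domain adaptor, was the highest of the group with 53, 43 and 44 counts against 6, 8 and 6. Sfn (1.66 against 0.341 CPM), Mapk15 (1.11 against 0.252 CPM), Dyrk4 (1.04 against 0.115 CPM) and Sh3d21 (1.01 against 0.325 CPM) completed it.

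The 6 transcription factor and nuclear cofactor genes were led by Tbx2, a T-box repressor, with 31, 29 and 35 counts against 0, 5 and 5. Foxf1, a forkhead factor of mesenchymal cells, had 26, 31 and 23 counts against 8, 5 and 8. Prdm1, which encodes the repressor Blimp1 of plasma cells and activated myeloid cells, had 11, 22 and 30 counts against 1, 7 and 1. Tbx2 and Foxf1 were even across HFCS-labelled libraries, while Prdm1 was lowest in replicate 1. Bend6 was at 1.72 against 0.322 CPM, Nrip2 at 1.06 against 0.461 CPM and Zfp882 at 1.02 against 0.182 CPM. Fibroblast and mesenchymal markers summed to 2.14 to 3.43 CPM in the HFCS-labelled and 1.15 to 2.41 CPM in the control-labelled libraries, and their part in the Foxf1 counts was not tested.

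Of 10 genes for surface and membrane proteins, Tenm4, a teneurin cell adhesion protein best known from the nervous system, stood far from the control-labelled libraries. It had 49, 45 and 54 counts against 0, 0 and 2, a ratio of summed counts of 74.1 with an exact interval of 20.2 to 618. Neuron and glia markers, on the other side, summed to 94.5 to 99.1 CPM in the HFCS-labelled and 129 to 141 CPM in the control-labelled libraries. Its exons are long, so per exon length its HFCS-labelled mean was 0.163 RPKM (CPM divided by exon length in kb), against 3.54 RPKM for Il1b and 1.13 RPKM for Gbp8.

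Entpd1, the CD39 ectoenzyme that degrades extracellular ATP, had 23, 39 and 37 counts against 7, 2 and 11. Of 13 other tested genes of the nucleotide, adenosine and related receptor list, 7 were higher, 0 lower and 6 did not pass, with a median log2 fold change of 0.38. P2rx7, the ATP-gated channel upstream of the inflammasome, was at 316 ± 8.45 CPM (SD, n = 3) against 197 ± 15.4 CPM (SD, n = 3), higher by 0.60 ± 0.07 (log2, SE). Gpr35 was the largest of the 7 by fold, with 60, 52 and 82 counts against 5, 6 and 15 (log2 fold change 2.80 ± 0.38, SE).

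Ager, the receptor RAGE for glycated proteins and S100 ligands, had 29, 34 and 31 counts against 6, 5 and 6. Counts were even within each group, while the order of the groups is set by the rule. In a list of its ligands and partners that was chosen after the fact, 0 of 5 tested genes were higher, 3 were lower and 2 did not pass. S100a4 was the largest of these by fold, with 34, 20 and 34 counts against 113, 128 and 91 (log2 fold change -1.99 ± 0.25, SE).

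Tarm1, an activating receptor of myeloid cells that pairs with the Fc receptor gamma chain, had 16, 22 and 27 counts against 1, 1 and 2. P2rx5, a further ATP-gated channel, had 13, 14 and 18 counts against 3, 7 and 8, close to the limits of the rule. The other 5 genes of the group, Gpr85, Slc7a3, Upk1a, Sdk1 and Adam1a, had HFCS-labelled means of 1.07 to 1.48 CPM and control-labelled means of 0.302 to 0.463 CPM. For Adam1a, 63.7% of exon bases are shared with another annotated gene.

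Among 12 genes for growth factors, ligands and other secreted proteins, F5 had the largest ratio. This gene for coagulation factor V, cofactor of the enzyme that makes thrombin, had 25, 18 and 38 counts against 0, 0 and 3, a ratio of 27.1 with an exact interval of 8.93 to 134. Of 12 other tested genes of the serine protease, plasmin and clotting list, 3 were higher, 5 lower and 4 did not pass, with a median log2 fold change of -0.30. Plaur, the urokinase receptor, was higher (1.65 ± 0.17, SE), whereas its ligand Plau was lower (-1.11 ± 0.08, SE).

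Ctla2a, a cysteine protease inhibitor similar to a cathepsin propeptide, had 23, 26 and 42 counts against 1, 3 and 0. Ctsk, the collagen-degrading cathepsin of osteoclasts, had 20, 34 and 28 counts against 6, 4 and 4. Of 5 other tested osteoclast markers 1 was higher (Mmp9, 1.07 ± 0.15, SE), 2 lower (Acp5, -1.16 ± 0.10, and Nfatc1, -0.71 ± 0.07, SE) and 2 did not pass. Osteoclast markers, Ctsk among them, summed to 123.3 CPM in each HFCS-labelled library and 175 to 183 CPM in the control-labelled ones. Of 11 other cathepsin genes tested, in a list chosen after the fact, 3 were higher, 3 lower and 5 did not pass.

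Fgf9, a fibroblast growth factor, was nearly the same in the HFCS-labelled libraries, with 15, 15 and 17 counts against 6, 1 and 7. Of 10 other EGF, VEGF, PDGF and FGF ligand genes tested, 4 were higher, 3 lower and 3 did not pass, led by Vegfa at 270 ± 19.4 CPM (SD, n = 3) against 93.5 ± 5.56 CPM (SD, n = 3). Egfl8 had 24, 39 and 39 counts against 10, 4 and 5. The gene lies 12.4 kb from Ager on the opposite strand, and 40.7% of its exon bases lie in exons of other annotated genes. Mdk, the heparin-binding factor midkine, had 21, 21 and 20 counts against 7, 5 and 8, even in both groups. The 6 other genes, Npnt, Wfikkn1, Vwce, Efnb3, Lcat and Klk9, had HFCS-labelled means of 1.03 to 1.54 CPM.

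Cytoskeletal and contractile proteins gave 9 genes. Myo1a, a brush-border myosin, had 38, 42 and 50 counts against 11, 6 and 4. Stac3, which couples calcium channels to contraction in skeletal muscle, had 38, 41 and 32 counts against 11, 1 and 3. Tppp3, a tubulin polymerisation protein, had 34, 33 and 26 counts against 7, 6 and 3. In all of these the HFCS-labelled libraries were close together, while control replicate 1 was the highest control-labelled library each time.

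Eml1, a microtubule-associated protein, had 32, 18 and 20 counts against 1, 0 and 4. Mybpc3 (1.42 against 0.321 CPM), Synpo2l (1.46 against 0.391 CPM), Myh11 (1.27 against 0.230 CPM), Fhdc1 (1.52 against 0.437 CPM) and Cabyr (1.11 against 0.187 CPM) were lower in level. Muscle markers summed to 8.56 to 10.8 CPM in the HFCS-labelled and 5.11 to 8.90 CPM in the control-labelled libraries. Their ranges overlapped, and their part in the Stac3, Mybpc3 and Myh11 counts was not tested.

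Of 6 genes for metabolic and mitochondrial proteins, Pygm, the glycogen phosphorylase of muscle, was the highest, with 30, 35 and 34 counts against 7, 3 and 4. Cpt1b, the muscle enzyme that passes fatty acids into mitochondria, had 22, 16 and 19 counts against 6, 3 and 9. For Cpt1b, 81.4% of exon bases lie in exons of another annotated gene. Cox20, an assembly factor of cytochrome oxidase, had 21, 13 and 12 counts against 2, 1 and 5, and 91.1% of its exon bases overlap Hnrnpu, an RNA-binding protein gene on the opposite strand at 710 against 665 CPM. Naprt (1.18 against 0.459 CPM), Abat (1.07 against 0.410 CPM) and Nme2 (1.06 against 0.458 CPM) lay near the limits of the rule, and 48.9% of the Nme2 exon bases are shared. Pnma1, Fam186b and Hspa12b, genes of other functions, were at 1.10 to 1.57 CPM in the HFCS-labelled libraries.

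**Figure D3:**
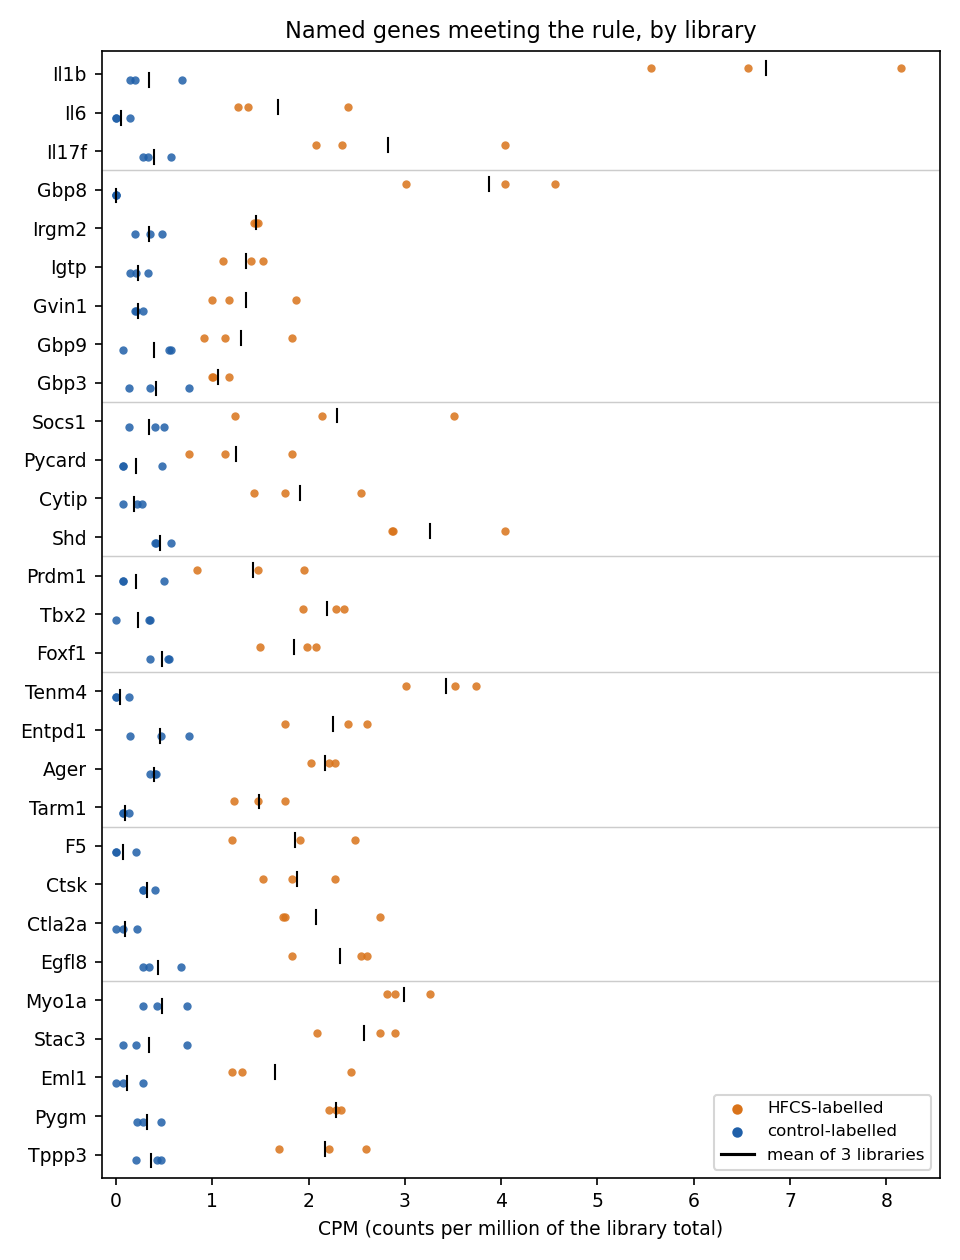
CPM in each of the 6 libraries for 29 named genes meeting the rule, grouped by role (cytokines, GTPases, signalling, transcription factors, surface proteins, secreted proteins, cytoskeletal and metabolic proteins), with group means as vertical bars. By construction no orange point lies below a blue point of the same gene; Gbp8 and Tenm4 are far from their control-labelled values, and Socs1 and Il17f spread widely within the HFCS-labelled group.

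Unnamed or clone-named genes made up 30 of the 96 and ran from 1.005 to 2.47 CPM in the HFCS-labelled libraries. They comprise 7 protein-coding genes, 5 lincRNAs, 5 processed transcripts, 4 antisense transcripts, 4 pseudogenes, 3 transcripts awaiting experimental proof and 2 sense-intronic transcripts. A named antisense transcript, Bach2os, was the highest of all noncoding genes, with 44, 48 and 53 counts against 5, 6 and 9. Its host on the other strand, Bach2, a repressor of lymphoid cells, was at 0.694 against 0.0683 CPM and was not tested. Prox2os had 33, 37 and 36 counts against 8, 5 and 8, and Chn1os3 had 17, 20 and 16 against 4, 4 and 1.

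The 5 highest unnamed genes were Gm28306, Gm13205, Gm38575, Gm47761 and Gm48552, at 2.03 to 2.47 CPM. Gm28306 had 25, 23 and 61 counts against 5, 7 and 8, the widest spread of all 96 genes relative to counting noise. Gm38575 had 22, 26 and 54 counts against 3, 1 and 2, again highest in replicate 3. Gm13205 was even, with 38, 33 and 35 counts against 3, 4 and 4. The largest ratios rest on very few control-labelled counts. Gm11770 had 1 count over the control-labelled group (ratio 56.1, exact interval 9.66 to 2255), 4931431B13Rik had 1 (48.1, 8.23 to 1938) and Gm28512 had 2 (25.5, 6.72 to 217).

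In gene class the low-control genes were set beside genes under the same control limit and beside all genes listed. Genes under that limit had a median HFCS-labelled mean of 0.0869 CPM. The rule's HFCS limit of 1 CPM therefore enters the comparison, and its part was not tested. Protein-coding genes made up 72.9% of the 96, against 35.4% of the 9284 genes with a control mean under 0.5 CPM and 61.9% of all genes listed. Pseudogenes made up 4.17%, against 22.8% and 12.9%. The median exon length was 2.65 kb, against 1.27 kb and 2.69 kb, and the median GC content 50.6%, against 48.6% and 49.1%. Genes with an HFCS-labelled mean between 1 and 7 CPM, whatever their control level, had a median exon length of 2.39 kb and were protein-coding in 53.9%.

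Some low-control genes overlap other genes, and the sources used here give no strand setting for the counting, so reads of overlapping genes cannot be told apart. Another listed gene was overlapped by 36 of the 96 (37.5%), a smaller share than the 48.8% of all genes listed and the 46.9% of those with a control mean under 0.5 CPM. At least 50% of exon bases were shared with a listed gene in 5 of the 96 (5.21%, against 2.14% and 3.36%). Those 5 were Cox20, Gm48551, Gm48552, Gm28306 and Prox2os. Of the genes outside the rule that overlapped a low-control gene, 27 were tested, and 15 were higher by edgeR (55.6%, against 22.4% of all tested genes), 1 lower and 11 did not pass, with a median log2 fold change of 0.50. Their values are not independent of the rule where reads are shared. Of 77 tested genes within 10 kb without overlap, 18 were higher (23.4%), 19 lower (24.7%) and 40 did not pass, close to the 22.4% and 22.5% of all tested genes.

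Several overlapping genes were at a higher level than the low-control gene itself. Prox2, on the strand opposite Prox2os, was at 7.49 against 2.16 CPM (log2 fold change 1.71 ± 0.18, SE). Casz1, opposite Gm13205, was at 3.26 against 0.758 CPM (2.01 ± 0.41, SE). In each of these pairs both genes had their higher level in libraries labelled HFCS. Gadd45a, a stress-response gene opposite E230016M11Rik, was at 5.95 against 1.66 CPM (1.76 ± 0.21, SE), whereas Hnrnpu, over Cox20, did not pass (0.01 ± 0.06, SE). Il1bos, opposite Il1b, was at 0.601 against 0.347 CPM and was not tested. Without overlap, Fendrr, a noncoding gene 1276 bp from Foxf1 on the opposite strand, was at 8.09 ± 0.57 CPM (SD, n = 3) against 1.47 ± 0.13 CPM (SD, n = 3), higher by 2.37 ± 0.20 (log2, SE).

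**Figure D4:**
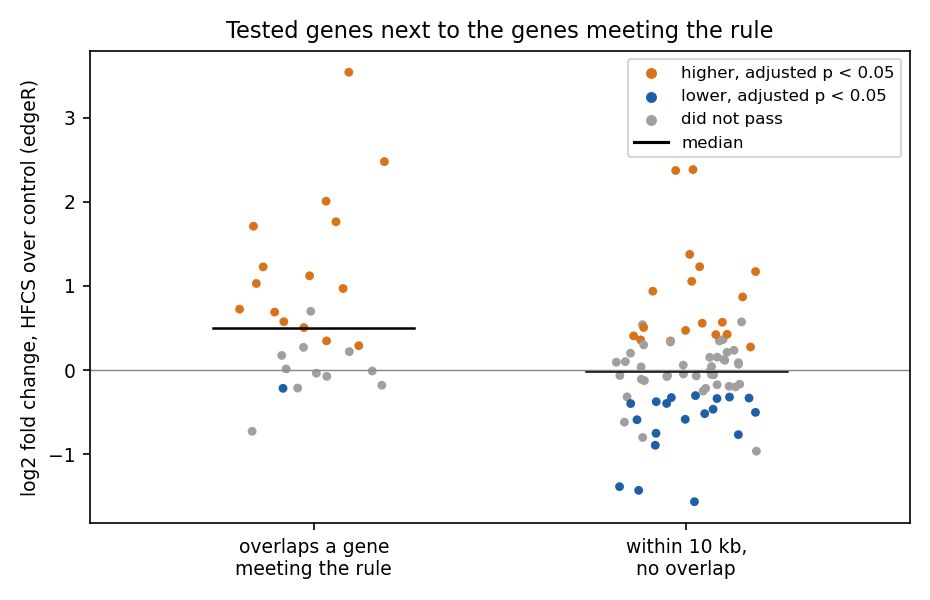
Log2 fold change (HFCS-labelled over control-labelled, edgeR) of 27 tested genes that overlap a gene meeting the rule and of 77 tested genes within 10 kb of one without overlap; horizontal bars are medians (0.50 and -0.01). The overlapping genes lie mostly above 0, and the genes nearby are spread on both sides of it.

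The spread within the HFCS-labelled group sets how far single values can be read. The highest HFCS-labelled library was a median of 1.71 times the lowest, up to 4.84 times for Gm5466, and 18 of 96 genes spread beyond the 95% limit of counting noise, where counting noise alone gives 5%. Il1b, Il6, Il17f, Socs1, F5, Prdm1, Pycard and Eml1 were among these 18. The highest library was replicate 1 for 36 genes, replicate 2 for 29 and replicate 3 for 31. Leaving out each library in turn, 46 of the 96 met the rule every time, and 10 failed at least 2 times: Abat, B430203G13Rik, Gbp3, Gm43310, Klk9, Myo1a, Naprt, Nme2, P2rx5 and Sh3d21.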

How the data were processed

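The deposited values were raw read counts per gene in 6 RAW264.7 libraries, whole and unnormalised as the authors made them. The submitters' processing notes list CASAVA, HISAT2 2.0.5, featureCounts 1.5.0-p3 and build mm10; settings are not given in the sources used. Genes were matched by identifier to GENCODE M21 for exon lengths and overlaps (all 96 low-control genes found).

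CPM used column totals. All genes were fitted with edgeR 4.0.16 (R 4.3.3; filterByExpr minimum 10, TMM, glmQLFit and glmQLFTest, Benjamini-Hochberg, adjusted p under 0.05), which left 14360 genes. Adjusted p-values and log2 fold changes are from that fit, and each SE was derived from its F statistic. On data simulated for this comparison (13921 genes tested), 76% of genes changed 2-fold and 91% of those changed 4-fold were recovered, and 13 of 180 calls were false. Intervals are exact (Clopper-Pearson, 95%) and, like the floor of 3 counts, cover counting error only. The genes were chosen on these same counts, which the intervals do not allow for, so no interval is a test of a difference. DESeq2 1.42.0 was an alternative.

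Members and lists were chosen with earlier results of these data known. Named were members in a list, the 25 highest with a proper name, the 5 highest others, those nearest the limits, and overlapping or neighbouring genes; further members were named to cover each role, after their values were seen. Of the 18 lists and 14 marker lists drawn up, those that hold a member, and those whose values stand beside a result, are given. Some genes are not reported here.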

Additional observations from a re-analysis of the deposited data

How the results depend on the processing

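The number of genes meeting the rule, 96, follows its limits. It was 28 with a control mean under 0.25 CPM, 250 with a control mean under 1 CPM, 22 with an HFCS-labelled mean of at least 2 CPM, 261 with at least 0.5 CPM and 1 with 0 counts in every control-labelled library. With TMM or DESeq2 factors it was 92 or 93, and without the non-overlap condition 107. Leaving out each library in turn gave 98 to 125 genes, 81 to 90 of them among the 96. Of 768 recomputed differences of single genes, 0 changed sign and 16 moved by more than 1 SD.

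In the edgeR fit, leaving out each library gave 2626 to 3860 higher and 2489 to 3690 lower genes, and 13 to 17 higher genes among those overlapping a low-control gene. With library sizes alone, 3975 were higher and 2624 lower, against 3223 and 3224. DESeq2 called 3020 and 3038. Same-numbered libraries were not paired by the labels, and their deviations correlated at 0.167, -0.064 and 0.191, with HFCS-labelled replicate 2 closest to control replicate 1. With a replicate block, 3619 were higher, 3533 lower, and 15 overlapping genes higher. Of 286 list counts, 285 stayed within 1.5 times of the value given; without a filter, 3 other IL-1 family genes were lower in place of 1. A count of 0 in a control-labelled library allows a level of up to 0.202 to 0.213 CPM.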
